A study of Homo sapiens with 19 samples.

Results

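The p53 target genes are 34 genes that the transcription factor p53 is known to activate, taken as a list of gene symbols. All 34 were listed among the 34825 gene symbols of both tables, and 33 passed the filter on low values in each, the exception being TP53I11. The cells were HepG2, a human liver cancer cell line, transfected with 50 nM siRNA and harvested after 72 h. In the first experiment the siRNA was a control (NTG), siINO80#1 or siINO80#2, with 3 libraries each. In the second, cells received 1 µM EPZ-6438 or the solvent DMSO from 3 days before transfection with NTG or siMCRS1. DMSO cells gave 2 NTG and 3 siMCRS1 libraries, and EPZ-6438 cells 3 NTG and 2 siMCRS1 libraries. INO80 is the ATPase of the INO80 chromatin remodeling complex, and MCRS1 is a subunit that this complex shares with the NSL acetyltransferase complex. EPZ-6438 inhibits EZH2, the methyltransferase that places H3K27me3. Transient siRNA lowers a transcript without removing it, and MCRS1 was targeted with a single siRNA. The labels do not say that replicates came from separate cultures, so p-values measure the spread between these libraries, which may be technical.

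In unstressed cells p53 is kept low by MDM2, a ubiquitin ligase that is itself a p53 target, and by its relative MDM4. When p53 is stabilized it binds response elements made of a pair of half-sites and raises genes that stop the cell cycle, trigger mitochondrial or receptor-driven death, repair DNA, alter metabolism and feed back on p53. Most control of p53 acts on the protein, which these RNA data do not measure. Many of the targets also answer to other transcription factors.

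The response element is the DNA sequence that p53 binds, so the matches to it near the starts of these genes are shown first. RefSeq promoter windows (GRCh38.p14, 250 bases before and 50 after each start, 300 in all) were available for 29 of the members by symbol. They were searched with the p53 response element consensus, 20 bases made of 2 abutting half-sites of 10, keeping the central C and G of each half-site and allowing 3 mismatches elsewhere. The consensus reads the same on both strands, so both were searched at once. A match was found for 8 of the 29 members (27.6%), against 1.37% of 27305 genes and 1.12% of 35116 windows. They run 5′ to 3′ in the direction of transcription, with the match in capitals and its position relative to the start. Matches that lie wholly before the start are shown with up to 20 bases on either side, stopping at the start, and those of DDB2 and GDF15 are shown alone.
MDM2, chr12:68808903-68808962, plus strand, capitals at -94 to -75: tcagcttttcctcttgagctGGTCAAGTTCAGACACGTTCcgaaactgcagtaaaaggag
PMAIP1, chr18:59899791-59899850, plus strand, capitals at -185 to -166: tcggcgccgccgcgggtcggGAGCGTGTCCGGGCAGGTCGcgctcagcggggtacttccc
AEN, chr15:88621286-88621339, plus strand, capitals at -34 to -15: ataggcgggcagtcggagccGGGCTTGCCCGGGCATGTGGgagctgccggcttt
FAS, chr10:88991289-88991348, plus strand, capitals at -122 to -103: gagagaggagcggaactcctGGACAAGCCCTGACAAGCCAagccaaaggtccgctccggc
DDB2, chr11:47214969-47214988, plus strand, capitals at -5 to 15: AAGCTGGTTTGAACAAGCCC
SESN1, chr6:109008998-109009057, minus strand, capitals at -49 to -30: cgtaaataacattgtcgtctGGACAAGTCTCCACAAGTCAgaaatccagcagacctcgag
FDXR, chr17:74872995-74873035, minus strand, capitals at -21 to -2: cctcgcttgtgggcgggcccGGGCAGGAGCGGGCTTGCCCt
GDF15, chr19:18386186-18386205, plus strand, capitals at 29 to 48: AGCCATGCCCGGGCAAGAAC
The fewest mismatches, 1, were in the DDB2 match, and 3 were in those of PMAIP1, SESN1, FDXR and GDF15. A match describes the letters of this window and not a bound site.

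Depth ran from 17093574 to 25369547 reads per library in the INO80 experiment and from 26038505 to 47397233 in the MCRS1 experiment. The floor of 3 reads was worth 2.30 to 3.58 and 2.13 to 4.30 normalized counts. The siINO80#2 replicate C library stood somewhat apart, with 4.02% of its normalized counts in 1 gene against 2.00 to 2.43% in the other libraries of that experiment. All 8 hepatocyte markers passed the filter, and they summed to 688754 to 836900.0 normalized counts in NTG, 794368 to 973577 in siINO80#1 and 561931 to 777958 in siINO80#2. Of the 8, 4 were lower with siINO80#2 (50%, against 28.4% of all genes). There the median of the 8 was -0.33 on the log2 scale. With siINO80#1 and with siMCRS1 in DMSO and EPZ-6438, 1 each was lower (12.5%, against 20.8, 24.6 and 26.9%). In EPZ-6438 siMCRS1 also raised 1 (12.5%, against 26.8%). Of the 4 leukocyte markers 2 were tested in each experiment, and they summed to between 28.7 and 60.4 normalized counts per library. With siINO80#1, 1 of the 2 was higher (50%, against 20.7% of all genes), and 0 were called in the other knockdown comparisons. CD3E, the T cell marker among the 4, was at 0 in all INO80 libraries and at no more than 3.23 normalized counts in the others. The 3 endothelium markers summed to between 176 and 340. The 1 tested in the INO80 experiment was higher with siINO80#2 (100%, against 26.6%), and siMCRS1 gave 0 calls. The sum of the 4 fibroblast markers differed between some groups. With siINO80#1, 1 of 4 tested was higher (25%, against 20.7% of all genes). With siINO80#2, 1 was higher and 1 lower (25% each, against 26.6 and 28.4%). In the MCRS1 experiment 2 were tested, and siMCRS1 raised 1 in each treatment (50%, against 23.1 and 26.8%). The 4 markers summed to 256 to 281 normalized counts in NTG, 461 to 485 in siINO80#1 and 286 to 311 in siINO80#2. In DMSO cells they summed to 338 to 362 (NTG) and 551 to 907 (siMCRS1), and in EPZ-6438 cells to 194 to 362 (NTG) and 792 to 851 (siMCRS1). The part of these marker lists in the results on the targets was not tested. In these bulk libraries fewer cells carrying a transcript and less of it per cell cannot be told apart.

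The targeted transcripts fell under their siRNAs. INO80 lay at 1278, 1338 and 1175 in NTG, 576, 639 and 609 in siINO80#1 and 439.8, 456 and 483 in siINO80#2, in normalized counts. Its log2 fold change was -1.05 ± 0.08 (adjusted p = 5.1e-06) with siINO80#1 and -1.46 ± 0.08 (adjusted p = 3.59e-07) with siINO80#2, where ± gives the standard error and p is limma's, adjusted by Benjamini-Hochberg. Less of it was left with siINO80#2 (log2 difference -0.40 ± 0.08, adjusted p = 0.00577). MCRS1 lay at 1577 and 1283 (NTG) and 140.2, 83.7 and 119 (siMCRS1) under DMSO and at 1533, 1355 and 1201 (NTG) and 126 and 90.5 (siMCRS1) under EPZ-6438. Its log2 fold change was -3.66 ± 0.23 in DMSO and -3.66 ± 0.23 in EPZ-6438. In siMCRS1 cells INO80 itself was at -0.27 ± 0.10 (adjusted p = 0.0387) in DMSO and at -0.35 ± 0.10 (adjusted p = 0.00966) in EPZ-6438. The DMSO call was lost without any 1 of DMSO NTG library 1, DMSO NTG library 2, DMSO siMCRS1 library 1, DMSO siMCRS1 library 2, EPZ-6438 NTG library 3, EPZ-6438 siMCRS1 replicate A and EPZ-6438 siMCRS1 replicate B (adjusted p = 0.051 to 0.243). The EPZ-6438 call was lost without EPZ-6438 siMCRS1 replicate B (adjusted p = 0.0816).

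The 33 tested targets did not move as a block: each knockdown raised some and lowered others. With siINO80#1, 10 were higher, 7 lower and 16 not called at an adjusted p under 0.05. That is 30.3% higher and 21.2% lower, where 20.7% and 20.8% of all 14034 tested genes were. With siINO80#2, 13 were higher and 6 lower (39.4% and 18.2%), against 26.6% and 28.4% of all genes. With siMCRS1 in DMSO 10 were higher and 12 lower (30.3% and 36.4%), against 23.1% and 24.6% of 14312 genes, and in EPZ-6438 13 were higher and 10 lower (39.4% and 30.3%), against 26.8% and 26.9%. The median log2 fold change of the 33 was 0.03, 0.18, 0.06 and 0.07 in this order, where the median of all genes was within 0.01 of 0. The direct comparison of siINO80#2 with siINO80#1 put 5 targets higher and 1 lower (15.2% and 3.03%), against 9.48% and 12.6% of all genes.

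These counts depended on how libraries were scaled. Rescaling all libraries of an experiment to equal totals moved the median log2 fold change of all genes to -0.08 and -0.11 for the INO80 siRNAs and to -0.23 for siMCRS1 in either treatment. In the same order, the share of all calls that were higher went from 49.9, 48.3, 48.4 and 49.9% to 39.8, 38.7, 27.1 and 30.2%. The targets then stood at 6 higher and 11 lower, 8 and 8, 6 and 15, and 9 and 14. No call changed direction. The calls lost were those of AEN, BBC3, RRM2B and TIGAR with siINO80#1, and of CDKN1A, PERP, RRM2B, TIGAR and TNFRSF10B with siINO80#2. With siMCRS1 they were those of AEN, PERP, PLK3 and TNFRSF10B in DMSO and of APAF1, MDM4, PERP and PLK3 in EPZ-6438. Quantile normalization removed the siMCRS1 calls of PERP, EDA2R and TNFRSF10B in both treatments, of AEN in DMSO and of APAF1 and MDM4 in EPZ-6438, and that of DDB2 with siINO80#2. Without siINO80#2 replicate C the counts for siINO80#2 were 15 higher and 6 lower. Without NTG replicate C, siINO80#1 raised 6, without DMSO NTG library 1 siMCRS1 in DMSO lowered 7, and without EPZ-6438 siMCRS1 replicate A siMCRS1 in EPZ-6438 lowered 6.

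Across the 4 knockdown comparisons, 5 targets were higher in all (GADD45A, PLK2, PLK3, TP53INP1 and GDF15), 4 were lower in all (BAX, DDB2, FDXR and SPATA18), 5 were called in none (MDM2, PPM1D, FAS, SESN1 and CD82) and 3 were called in both directions (CDKN1A, EDA2R and RRM2B). Of the 13534 genes tested in both experiments, 11.4% were higher in all 4, 11.4% lower in all 4, 19.8% called in none and 6.01% called in both directions, against 15.2, 12.1, 15.2 and 9.09% of the targets. Comparisons of the same experiment share libraries or a fit. For 7 of the 9 targets called the same way in all 4, all but PLK3 and DDB2, the calls of all 4 comparisons held in each of the 19 alternative settings tried.

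**Figure D1:**
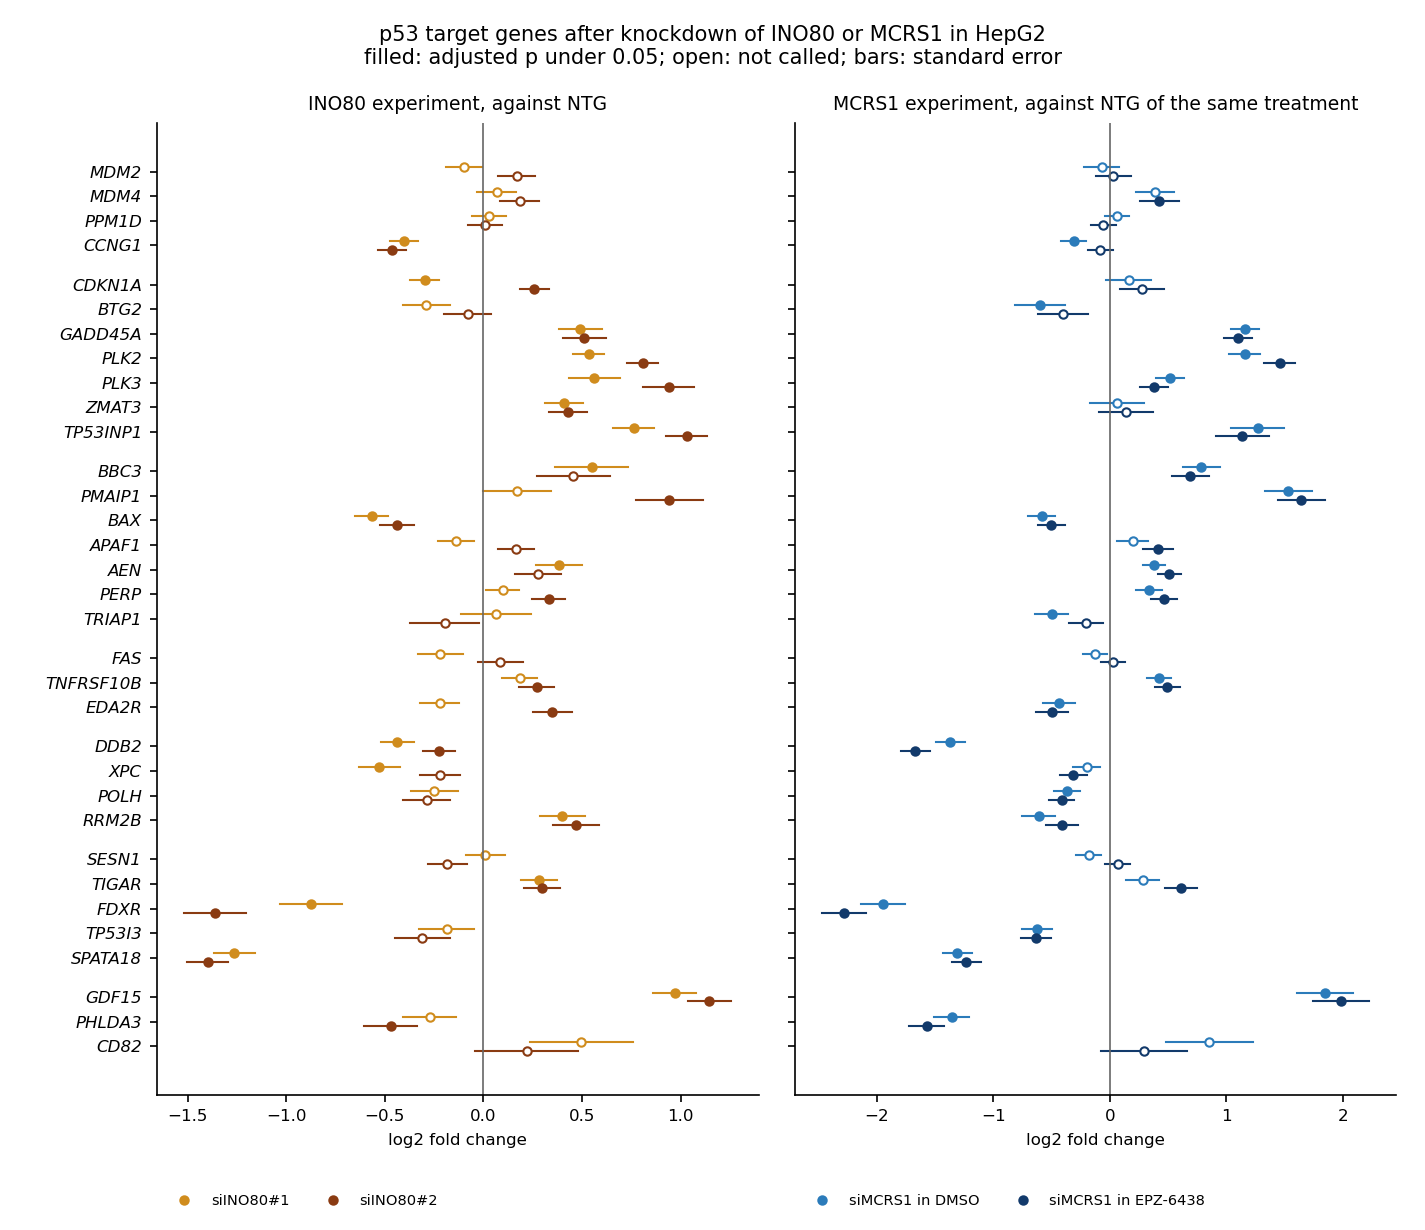
Log2 fold change (x axis, on the scale log2 of normalized count + 1) of the 33 tested p53 target genes, grouped by role, against NTG. The left panel shows both INO80 siRNAs and the right panel siMCRS1 in either treatment. Bars are standard errors, and filled points have an adjusted p under 0.05. FDXR and SPATA18 lie far to the left and GDF15 far to the right in both panels.

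Among the feedback genes, MDM2, the main ubiquitin ligase of p53, was not called in any knockdown comparison. It lay at 2186, 2229 and 2433 in NTG, 2255, 2016 and 2126 in siINO80#1 and 2448, 2337 and 2935 in siINO80#2 in the INO80 experiment, where the ranges of NTG overlapped those of both siRNAs. With siMCRS1 or its control it lay at 3214 and 3794 (NTG) and 2719, 3648 and 3717 (siMCRS1) under DMSO and at 3111, 3461 and 3895 (NTG) and 3399 and 3704 (siMCRS1) under EPZ-6438, with overlapping groups throughout. The siINO80#2 libraries were above the siINO80#1 libraries, a log2 difference of 0.27 ± 0.09 (adjusted p = 0.0623). Its log2 fold changes against NTG were -0.10 (95% interval -0.30 to 0.10) and 0.17 (-0.04 to 0.37) with siINO80#1 and siINO80#2. They were -0.07 (-0.40 to 0.26) and 0.03 (-0.30 to 0.36) with siMCRS1 in DMSO and EPZ-6438. PPM1D, the phosphatase that turns p53 signalling down, ranged only from -0.06 to 0.06 over the 4 comparisons.

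CCNG1, which encodes cyclin G1, was the feedback gene that fell. It lay at 4613, 4862 and 4675 in NTG, 3728, 3524 and 3458 in siINO80#1 and 3436, 3653 and 3187 in siINO80#2, where no siRNA library reached the lowest NTG library. The log2 fold change was -0.40 ± 0.07 (adjusted p = 0.000962) with siINO80#1 and -0.46 ± 0.07 (adjusted p = 0.00022) with siINO80#2. With siMCRS1 in DMSO it was -0.31 ± 0.11 (adjusted p = 0.0342), a call lost without any 1 of DMSO NTG library 1, DMSO siMCRS1 library 2 and DMSO siMCRS1 library 3 (adjusted p = 0.0824 to 0.231), and in EPZ-6438 -0.08 ± 0.11 (adjusted p = 0.535), not called. MDM4, which binds and inhibits p53, passed the threshold only for siMCRS1 in EPZ-6438 (0.43 ± 0.16, adjusted p = 0.0483), a call that 10 of the 19 alternatives did not keep, leaving out EPZ-6438 siMCRS1 replicate A or B, EPZ-6438 NTG library 1 or 2, or DMSO siMCRS1 library 2 among them.

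CDKN1A, which encodes p21, the cyclin-dependent kinase inhibitor through which p53 arrests the cell cycle, went opposite ways with the INO80 siRNAs. It lay at 4626, 5351 and 4951 in NTG, 3815, 4077 and 4234 in siINO80#1 and 6051, 5711 and 6055 in siINO80#2, so that all siINO80#1 libraries were below and all siINO80#2 libraries above the NTG libraries. The log2 fold change was -0.30 ± 0.07 (adjusted p = 0.00796) with siINO80#1 and 0.26 ± 0.07 (adjusted p = 0.0124) with siINO80#2, and the direct difference between the siRNAs was 0.56 ± 0.07 (adjusted p = 0.000764). The rise with siINO80#2 was not called without NTG replicate A (adjusted p = 0.0583) or with equal totals. In the other experiment CDKN1A lay at 6494 and 6901 (NTG) and 6615, 9190.2 and 6884 (siMCRS1) under DMSO and at 5879, 8335 and 5884 (NTG) and 6897 and 9266 (siMCRS1) under EPZ-6438, with overlapping groups. There siMCRS1 gave 0.16 ± 0.19 (adjusted p = 0.52) in DMSO and 0.28 ± 0.19 (adjusted p = 0.249) in EPZ-6438.

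Of the other 6 growth control targets, 4 rose in all knockdown comparisons, as did 11.4% of all genes tested in both experiments, and ZMAT3 rose in 2. With CDKN1A included, 71.4, 85.7, 57.1 and 57.1% of the 7 were higher with siINO80#1, siINO80#2 and siMCRS1 in DMSO and EPZ-6438. In this order 14.3, 0, 14.3 and 0% were lower. Of all genes, 20.7, 26.6, 23.1 and 26.8% were higher and 20.8, 28.4, 24.6 and 26.9% lower. TP53INP1, which encodes a stress-induced nuclear protein, lay at 971, 1154 and 1248 in NTG, 1693, 1951 and 2065 in siINO80#1 and 2171, 2452 and 2239.9 in siINO80#2. On the log2 scale these were changes of 0.76 ± 0.11 and 1.03 ± 0.11. In the MCRS1 experiment it lay at 1029 and 1509 (NTG) and 2519.5, 2852 and 3764 (siMCRS1) under DMSO and at 1060.1, 1415 and 1595 (NTG) and 2569.6 and 3373 (siMCRS1) under EPZ-6438. Those log2 fold changes were 1.27 ± 0.23 in DMSO and 1.14 ± 0.23 in EPZ-6438. Every siRNA library was above every NTG library of its comparison, and the adjusted p lay between 1.64e-05 and 0.0017.

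PLK2 and PLK3 encode polo-like kinases of the stress response. PLK2 lay at 477, 547 and 500.2 in NTG, 702, 771 and 734 in siINO80#1 and 919, 859 and 889 in siINO80#2. It was higher with siINO80#2 than with siINO80#1 (0.81 ± 0.08 against 0.53 ± 0.08, difference 0.27 ± 0.08, adjusted p = 0.0298). That difference was lost without any 1 of siINO80#1 replicate A, siINO80#2 replicate A and siINO80#1 replicate C (adjusted p = 0.0844 to 0.106). With siMCRS1 PLK2 went from 1052 and 1109 to 2156, 2732 and 2373 in DMSO and from 936, 882 and 779 to 2126 and 2641 in EPZ-6438. Its log2 fold changes came to 1.16 ± 0.14 and 1.46 ± 0.14. None of its groups overlapped within a knockdown comparison. PLK3 lay at 294, 331 and 349 in NTG, 469, 425 and 551 in siINO80#1 and 633, 536 and 710.4 in siINO80#2. Its log2 fold changes were 0.56 ± 0.13 and 0.94 ± 0.13. For siMCRS1 they were 0.51 ± 0.12 (adjusted p = 0.00517) in DMSO, lost without DMSO NTG library 1 (adjusted p = 0.0606), and 0.38 ± 0.12 (adjusted p = 0.02) in EPZ-6438, lost without EPZ-6438 siMCRS1 replicate A (adjusted p = 0.15).

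GADD45A, a growth arrest and DNA damage gene, rose in all 4 knockdown comparisons, and more than 2-fold with siMCRS1. It lay at 979, 1224 and 1052 in NTG, 1340.1, 1757 and 1488 in siINO80#1 and 1465, 1593 and 1565 in siINO80#2. Compared with NTG it changed on the log2 scale by 0.49 ± 0.11 and 0.51 ± 0.11. After siMCRS1 or its control it lay at 1868 and 2058 (NTG) and 3894, 4732 and 4574 (siMCRS1) under DMSO and at 1861, 1899 and 1755 (NTG) and 3518 and 4395 (siMCRS1) under EPZ-6438. There it changed by 1.16 ± 0.12 (fold 2.24) in DMSO and 1.10 ± 0.12 (fold 2.14) in EPZ-6438. ZMAT3, an RNA-binding zinc finger gene, was higher with siINO80#1 and siINO80#2 (0.41 and 0.43) and not called with siMCRS1 (0.06 and 0.14). BTG2, an antiproliferative gene, was called only with siMCRS1 in DMSO (-0.60 ± 0.21, adjusted p = 0.0381), and that call was lost without any 1 of DMSO NTG library 1, DMSO siMCRS1 library 1 and DMSO siMCRS1 library 3 (adjusted p = 0.0585 to 0.297).

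**Figure D2:**
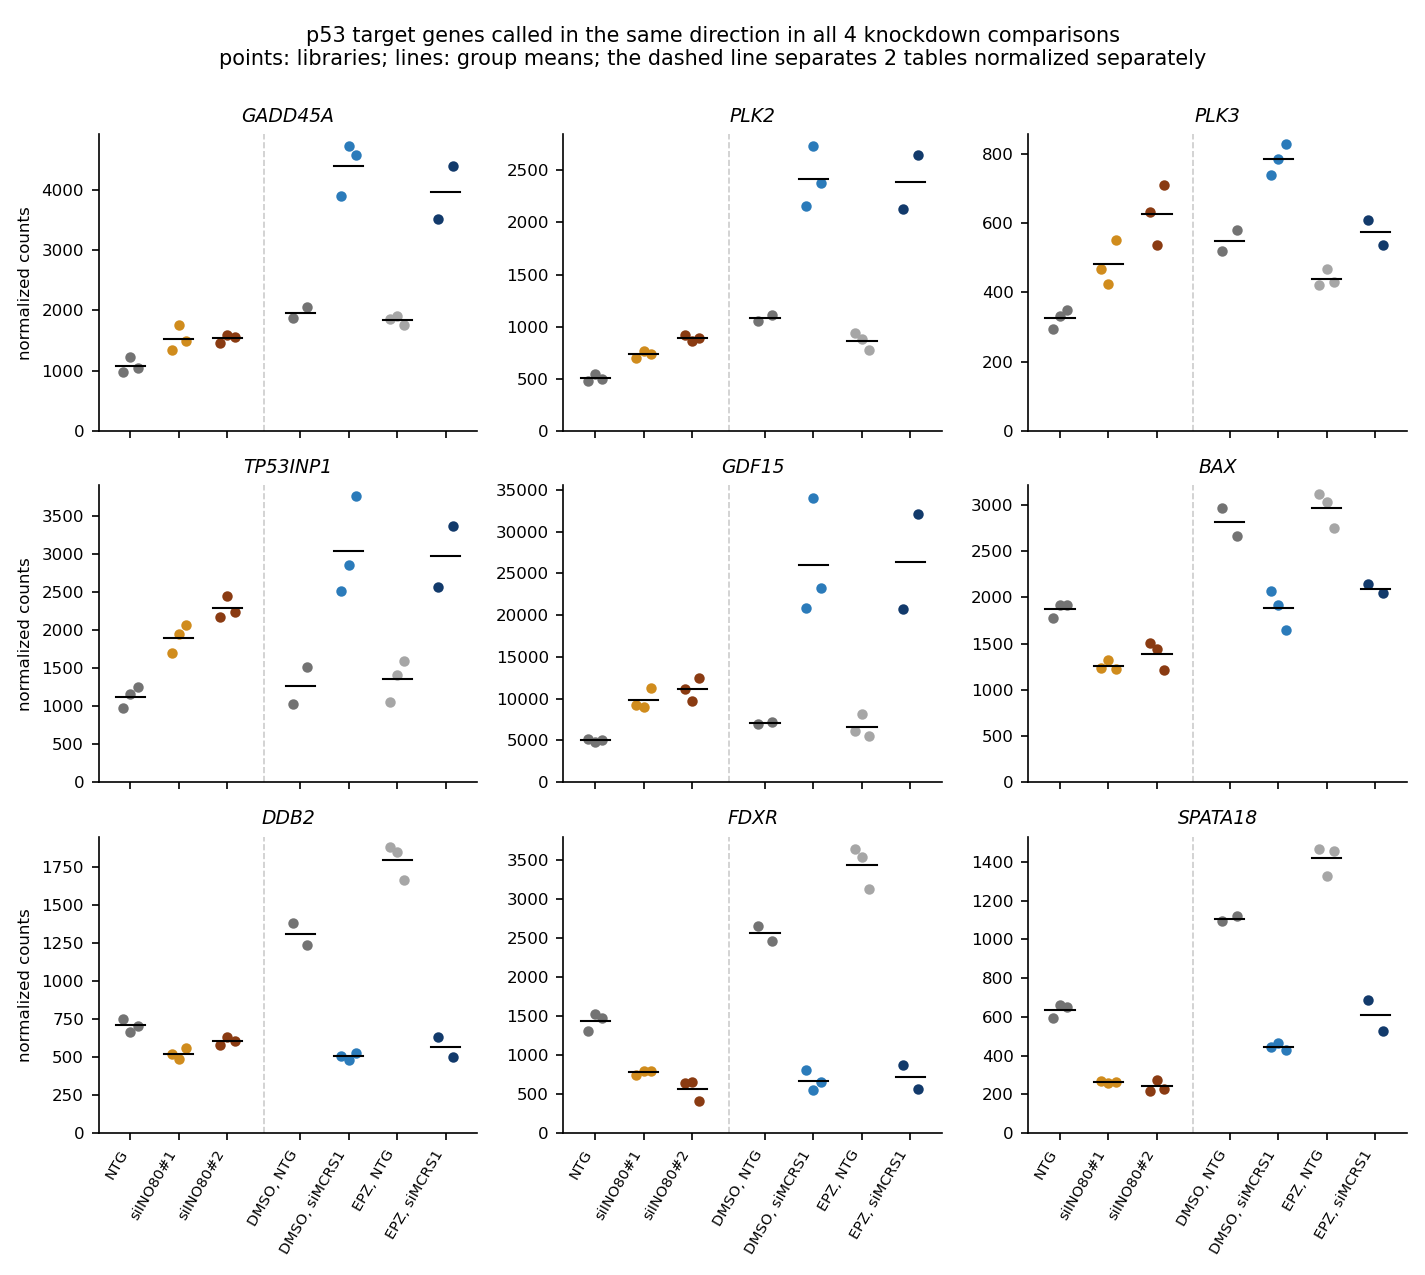
Normalized counts (y axis, from 0) of the 9 p53 target genes called in the same direction in all 4 knockdown comparisons, 1 point per library and a line at each group mean. The dashed line separates the INO80 table from the MCRS1 table, which were normalized separately. In each panel the siRNA libraries lie on 1 side of the NTG libraries of their comparison, above for GADD45A, PLK2, PLK3, TP53INP1 and GDF15 and below for BAX, DDB2, FDXR and SPATA18.

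The mitochondrial death genes split. Of the 7, 28.6, 28.6, 57.1 and 71.4% were higher with siINO80#1, siINO80#2 and siMCRS1 in DMSO and EPZ-6438, against 20.7, 26.6, 23.1 and 26.8% of all genes. In this order 14.3, 14.3, 28.6 and 14.3% were lower, against 20.8, 28.4, 24.6 and 26.9%. BBC3 (PUMA) and PMAIP1 (NOXA), which encode BH3-only proteins that set off the mitochondrial pathway, were each higher in 3 of the 4 knockdown comparisons. BAX, which encodes the pore-forming effector, was lower in all 4. BAX lay at 1779, 1912 and 1916 in NTG, 1240.0, 1322 and 1223 in siINO80#1 and 1501, 1436 and 1218 in siINO80#2. The log2 fold changes were -0.57 ± 0.08 (adjusted p = 0.000408) and -0.44 ± 0.08 (adjusted p = 0.00129). Its values for siMCRS1 and NTG were 2962 and 2659.8 (NTG) and 2069, 1919.8 and 1649 (siMCRS1) under DMSO and 3116, 3033 and 2751 (NTG) and 2143 and 2042 (siMCRS1) under EPZ-6438. That gave -0.59 ± 0.11 (adjusted p = 0.00187) in DMSO and -0.50 ± 0.11 (adjusted p = 0.00374) in EPZ-6438. All siRNA libraries were below the NTG libraries in each comparison.

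PMAIP1 was higher with siINO80#2 and siMCRS1. It lay at 106, 168 and 136 in NTG, 132, 179 and 146 in siINO80#1 and 263, 265 and 250.4 in siINO80#2, so that siINO80#1 overlapped NTG and siINO80#2 was above all of it. The log2 fold change was 0.17 ± 0.17 (adjusted p = 0.463) with siINO80#1 and 0.94 ± 0.17 (adjusted p = 0.000818) with siINO80#2, a difference of 0.77 ± 0.17 (adjusted p = 0.00956). With siMCRS1 PMAIP1 went from 349 and 423 to 1007, 1009 and 1358 in DMSO and from 558, 343 and 455 to 1327 and 1451 in EPZ-6438. That is 1.53 ± 0.20 (fold 2.89) and 1.64 ± 0.20 (fold 3.13).

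BBC3 lay at 133, 151 and 149 in NTG, 168, 228 and 245 in siINO80#1 and 199, 248 and 157 in siINO80#2, with all siRNA libraries above NTG. Its log2 fold change was 0.55 ± 0.18 (adjusted p = 0.0339) with siINO80#1, a call lost without any 1 of NTG replicate A, NTG replicate B, siINO80#1 replicate B, NTG replicate C and siINO80#1 replicate C (adjusted p = 0.0613 to 0.127), and 0.46 ± 0.18 (adjusted p = 0.0563) with siINO80#2, just outside the threshold. With siMCRS1 or NTG it lay at 196 and 199 (NTG) and 342, 321 and 359.5 (siMCRS1) under DMSO and at 189.6, 179 and 166 (NTG) and 248 and 333 (siMCRS1) under EPZ-6438. On the log2 scale these were changes of 0.78 ± 0.16 (adjusted p = 0.00228) in DMSO and 0.69 ± 0.16 (adjusted p = 0.00394) in EPZ-6438. The EPZ-6438 call was lost without EPZ-6438 siMCRS1 replicate B (adjusted p = 0.0675).

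Of the other death genes, AEN, an apoptosis-enhancing nuclease, was higher in 3 comparisons (log2 fold change 0.38 with siINO80#1, 0.38 and 0.51 with siMCRS1). With siINO80#2 it was at 0.28 ± 0.12 (adjusted p = 0.0676). PERP, a membrane protein gene, was higher in 3 (0.33 with siINO80#2, 0.34 and 0.47 with siMCRS1). APAF1, the scaffold of the apoptosome, was called with siMCRS1 in EPZ-6438 alone (0.41 ± 0.13, adjusted p = 0.0201), and TRIAP1, a mitochondrial apoptosis inhibitor, with siMCRS1 in DMSO alone (-0.50 ± 0.14, adjusted p = 0.0144). The siINO80#1 call of AEN was lost without any 1 of siINO80#1 replicate A, siINO80#1 replicate B, NTG replicate C and siINO80#1 replicate C (adjusted p = 0.0531 to 0.0939), and its siMCRS1 call in DMSO without DMSO NTG library 2 (adjusted p = 0.0632). The PERP calls were all lost with equal totals, that in DMSO also without any 1 of the 5 DMSO libraries, and that in EPZ-6438 without EPZ-6438 siMCRS1 replicate B (adjusted p = 0.078). The APAF1 call was lost without any 1 of EPZ-6438 NTG library 1 and EPZ-6438 siMCRS1 replicate B (adjusted p = 0.0554 to 0.211) and the TRIAP1 call without DMSO NTG library 1 (adjusted p = 0.116).

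The death receptors showed no common direction. FAS was called nowhere and lay between -0.22 and 0.09 on the log2 scale. TNFRSF10B, a receptor for the death ligand TRAIL, was higher with siINO80#2 (0.27 ± 0.09, adjusted p = 0.0235), a call lost without any 1 of NTG replicate A, siINO80#2 replicate A, siINO80#2 replicate B and NTG replicate C (adjusted p = 0.0648 to 0.0939). It was also higher with siMCRS1 in DMSO (0.42 ± 0.10, adjusted p = 0.00662) and EPZ-6438 (0.49 ± 0.10, adjusted p = 0.00229), and both calls were lost on quantile normalization. EDA2R, an ectodysplasin receptor, is described per library because its calls went both ways, a choice made after its values were seen. It lay at 352, 352 and 342 in NTG, 322, 272 and 305 in siINO80#1 and 448, 402 and 487 in siINO80#2. All siINO80#1 libraries were below NTG (-0.22 ± 0.10, adjusted p = 0.0998) and all siINO80#2 libraries above it (0.35 ± 0.10, adjusted p = 0.0122). The siRNAs differed by 0.57 ± 0.10 (adjusted p = 0.00313). Under siMCRS1 or NTG it lay at 608 and 658 (NTG) and 401, 492 and 519 (siMCRS1) under DMSO and at 644, 689.8 and 763 (NTG) and 476 and 514 (siMCRS1) under EPZ-6438, with -0.44 ± 0.14 (adjusted p = 0.0245) and -0.49 ± 0.14 (adjusted p = 0.0117) for siMCRS1. The DMSO call was lost without any 1 of DMSO NTG library 1, DMSO NTG library 2 and DMSO siMCRS1 library 1 (adjusted p = 0.0686 to 0.137) and the EPZ-6438 call without EPZ-6438 siMCRS1 replicate A (adjusted p = 0.0743).

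Of the DNA repair targets, DDB2 was lower in all 4 knockdown comparisons, XPC and POLH in 2 each, and RRM2B moved both ways. Of these 4, 50, 25, 75 and 100% were lower with siINO80#1, siINO80#2 and siMCRS1 in DMSO and EPZ-6438, against 20.8, 28.4, 24.6 and 26.9% of all genes. In this order 25, 25, 0 and 0% were higher, against 20.7, 26.6, 23.1 and 26.8%. DDB2, which encodes a damage recognition factor of nucleotide excision repair, lay at 749, 668 and 707 in NTG, 523, 485 and 561 in siINO80#1 and 579, 633 and 604 in siINO80#2. With siMCRS1 or NTG it lay at 1379 and 1239 (NTG) and 506, 481 and 530.0 (siMCRS1) under DMSO and at 1879, 1848 and 1665 (NTG) and 634 and 501 (siMCRS1) under EPZ-6438. Its libraries did not overlap those of NTG in any knockdown comparison. The log2 fold change was -0.44 ± 0.08 (adjusted p = 0.00181) with siINO80#1 and -0.23 ± 0.08 (adjusted p = 0.0401) with siINO80#2, and the latter was lost without any 1 of NTG replicate A, siINO80#1 replicate A, siINO80#2 replicate A, NTG replicate C and siINO80#2 replicate C (adjusted p = 0.0543 to 0.139) and with edgeR or DESeq2. With siMCRS1 it was -1.37 ± 0.13 (fold 0.387) in DMSO and -1.67 ± 0.13 (fold 0.314) in EPZ-6438.

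XPC, its partner in damage recognition, lay at 753, 751 and 757 in NTG, 603, 498 and 474 in siINO80#1 and 617, 721 and 607 in siINO80#2, with -0.53 ± 0.10 (adjusted p = 0.00209) for siINO80#1 and -0.22 ± 0.10 (adjusted p = 0.0942) for siINO80#2. With siMCRS1 it was at -0.20 ± 0.12 (adjusted p = 0.177) in DMSO and -0.32 ± 0.12 (adjusted p = 0.039) in EPZ-6438, the latter lost without any 1 of DMSO siMCRS1 library 2, DMSO siMCRS1 library 3, EPZ-6438 NTG library 2, EPZ-6438 NTG library 3, EPZ-6438 siMCRS1 replicate A and EPZ-6438 siMCRS1 replicate B (adjusted p = 0.0512 to 0.156). POLH, the translesion polymerase eta, was lower with siMCRS1 (-0.37 ± 0.11, adjusted p = 0.0178 under DMSO and -0.41 ± 0.11, adjusted p = 0.00842 under EPZ-6438), calls lost without any 1 of DMSO NTG library 1 and DMSO NTG library 2 (adjusted p = 0.0519 to 0.115) and without EPZ-6438 siMCRS1 replicate A (adjusted p = 0.0728).

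RRM2B, the p53-inducible subunit of ribonucleotide reductase, was higher with both INO80 siRNAs and lower with siMCRS1. This gene was also singled out after its values were seen. It lay at 889, 1018 and 908 in NTG, 1269.8, 1221 and 1220.0 in siINO80#1 and 1379.8, 1494 and 1056 in siINO80#2, above NTG in every siRNA library. Its log2 fold changes came to 0.40 ± 0.12 (adjusted p = 0.0178) and 0.47 ± 0.12 (adjusted p = 0.00566). For siMCRS1 and its control it lay at 2163 and 2369.6 (NTG) and 1288, 1529 and 1652 (siMCRS1) under DMSO and at 1796, 1572 and 1696 (NTG) and 1122 and 1438 (siMCRS1) under EPZ-6438, below NTG in every siMCRS1 library. The log2 fold changes there were -0.61 ± 0.14 (adjusted p = 0.00424) and -0.41 ± 0.14 (adjusted p = 0.0283). The siINO80#1 call was lost without any 1 of NTG replicate A, siINO80#1 replicate A and NTG replicate C (adjusted p = 0.0542 to 0.0629) and the EPZ-6438 call without any 1 of EPZ-6438 NTG library 1, EPZ-6438 NTG library 3 and EPZ-6438 siMCRS1 replicate A (adjusted p = 0.0598 to 0.27). Equal totals removed both INO80 calls. The 2 tables were normalized separately, and the difference between the knockdowns was not tested.

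**Figure D3:**
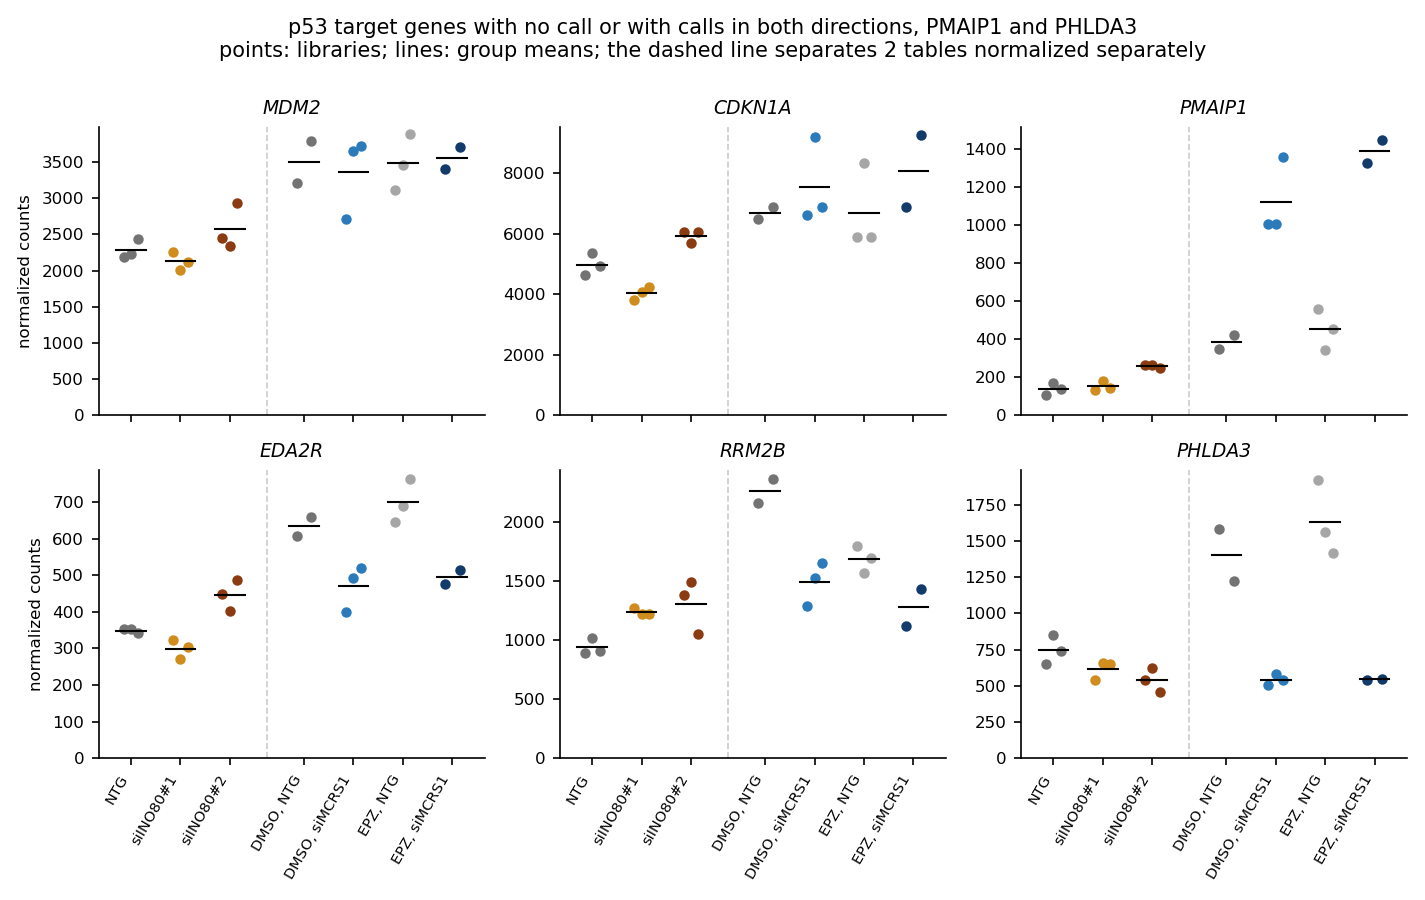
Normalized counts (y axis, from 0) of MDM2, CDKN1A, PMAIP1, EDA2R, RRM2B and PHLDA3, 1 point per library and a line at each group mean, with the dashed line between the separately normalized tables. MDM2 libraries of each knockdown overlap those of NTG, CDKN1A and EDA2R lie below NTG with siINO80#1 and above it with siINO80#2, RRM2B lies above NTG in the INO80 experiment and below it with siMCRS1, and PMAIP1 (up) and PHLDA3 (down) lie apart from NTG with siMCRS1.

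The largest fall among the targets was that of SPATA18 with the INO80 siRNAs and of FDXR with siMCRS1, both genes of mitochondrial proteins. FDXR, the reductase that passes electrons to mitochondrial P450 enzymes, lay at 1304, 1531 and 1475 in NTG, 751, 798 and 798 in siINO80#1 and 646, 655 and 409 in siINO80#2. Compared with NTG it changed on the log2 scale by -0.87 ± 0.16 (adjusted p = 0.00125) and -1.36 ± 0.16 (adjusted p = 3.64e-05). In the MCRS1 experiment it lay at 2656 and 2456 (NTG) and 803, 549.6 and 656 (siMCRS1) under DMSO and at 3633, 3536 and 3129.6 (NTG) and 873 and 569 (siMCRS1) under EPZ-6438. That is -1.95 ± 0.19 (fold 0.259) in DMSO and -2.28 ± 0.19 (fold 0.206) in EPZ-6438. All siRNA libraries lay below the NTG range, and the lowest value in the INO80 experiment was that of siINO80#2 replicate C.

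SPATA18, which encodes a mitochondrial quality control protein, fell in all 4 knockdown comparisons. It lay at 596, 663 and 651 in NTG, 272, 258 and 264 in siINO80#1 and 219, 277 and 229.6 in siINO80#2. With siMCRS1 or NTG it lay at 1093 and 1121 (NTG) and 446, 464 and 431 (siMCRS1) under DMSO and at 1467, 1326 and 1458 (NTG) and 688 and 527 (siMCRS1) under EPZ-6438, and in neither experiment did siRNA libraries overlap NTG. The log2 fold changes were -1.26 ± 0.10, -1.40 ± 0.10, -1.31 ± 0.13 and -1.23 ± 0.13. The folds were 0.417, 0.379, 0.404 and 0.426, with the largest adjusted p at 3.69e-05.

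TP53I3, a quinone oxidoreductase gene, was lower with siMCRS1. It lay at 1177 and 1155 (NTG) and 854, 788 and 642 (siMCRS1) under DMSO and at 1282, 1365 and 1179.5 (NTG) and 843 and 797 (siMCRS1) under EPZ-6438, without overlap (-0.62 ± 0.13, adjusted p = 0.00269 and -0.63 ± 0.13, adjusted p = 0.00199). With siINO80#1 and siINO80#2 it was at -0.19 ± 0.14 (adjusted p = 0.317) and -0.31 ± 0.14 (adjusted p = 0.0836). TIGAR, which slows glycolysis, was higher with siINO80#1 (0.28), siINO80#2 (0.30) and siMCRS1 in EPZ-6438 (0.61), and at 0.28 ± 0.14 (adjusted p = 0.118) in DMSO. The siINO80#1 call of TIGAR was lost without any 1 of NTG replicate A, siINO80#1 replicate A and NTG replicate C (adjusted p = 0.0586 to 0.112) and the siINO80#2 call without any 1 of siINO80#2 replicate A and NTG replicate C (adjusted p = 0.0598 to 0.0667). SESN1, a sestrin that restrains growth signalling, was called nowhere (-0.18 to 0.07).

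GDF15, a secreted stress cytokine of the TGF-beta family, had the largest rise of the 33 in all 4 knockdown comparisons. It lay at 5129, 4773 and 5067 in NTG, 9195, 8949 and 11308 in siINO80#1 and 11168, 9660.3 and 12442 in siINO80#2. On the log2 scale these were changes of 0.97 ± 0.11 (fold 1.96, adjusted p = 7.04e-05) and 1.15 ± 0.11 (fold 2.21, adjusted p = 1.13e-05). With siMCRS1 and NTG it lay at 6967 and 7176 (NTG) and 20820.5, 34057 and 23196 (siMCRS1) under DMSO and at 6113, 8215 and 5500.2 (NTG) and 20703 and 32116 (siMCRS1) under EPZ-6438. There they were 1.85 ± 0.24 (fold 3.60, adjusted p = 0.000172) and 1.99 ± 0.24 (fold 3.96, adjusted p = 7.42e-05). The lowest siRNA library was above the highest NTG library in each comparison.

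PHLDA3, which encodes a repressor of AKT signalling, fell in 3 of the comparisons. It lay at 650.2, 851 and 744 in NTG, 541, 659 and 654 in siINO80#1 and 541, 623 and 459 in siINO80#2, overlapping NTG with siINO80#1 (-0.27 ± 0.13, adjusted p = 0.132) and lower with siINO80#2 (-0.47 ± 0.13, adjusted p = 0.0122), a call lost without NTG replicate B (adjusted p = 0.0546). With siMCRS1 it went from 1584 and 1222 to 506, 583 and 541 in DMSO and from 1919, 1564 and 1419 to 543 and 547 in EPZ-6438. That is -1.36 ± 0.15 and -1.57 ± 0.15. CD82, a tetraspanin gene, was near the filter at 11.2, 11.3 and 15.4 in NTG, 19.1, 15.9 and 19.2 in siINO80#1 and 14.6, 15.3 and 14.2 in siINO80#2 and was not called, its largest value being 0.85 ± 0.37 (adjusted p = 0.0793) with siMCRS1 in DMSO. TP53I11, a membrane protein gene, had at most 1 read in any library and allows no fold change.

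The calls of the experiments, which share no library, were set side by side. Of the 10 targets higher with siINO80#1 and the 10 higher with siMCRS1 in DMSO, 7 were the same (70% of each list), and of the 7 and 12 lower, 5 (71.4 and 41.7%). Only RRM2B was called in opposite directions. Over all genes tested in both, the shared shares were 65.1 and 58.0% of the higher and 63.4 and 53.9% of the lower calls. For siINO80#2 and siMCRS1 in DMSO, 8 targets were higher in both (61.5 and 80%) and 6 lower in both (100 and 50%), with EDA2R and RRM2B opposite. Here all genes gave 57.0 and 64.6% of the higher and 55.2 and 64.1% of the lower calls.

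The 8 targets with a response element match in their promoter window did not share a direction. GDF15 was higher in all 4 comparisons, PMAIP1 and AEN in 3 each, DDB2 and FDXR were lower in all 4, and MDM2, FAS and SESN1 were called in none. Of the 8, 25% were higher and 25% lower with each INO80 siRNA, and 37.5 and 25% with siMCRS1 in each treatment. Of the other 160 tested genes with a match, 17.5% were higher and 27.5% lower with siINO80#1, against 20.7 and 20.8% of all genes. With siINO80#2 the shares were 23.1 and 31.9%, against 26.6 and 28.4%. Of 161 in the MCRS1 experiment, 18.0 and 29.8% were higher and lower with siMCRS1 in DMSO, against 23.1 and 24.6%. In EPZ-6438 the shares were 26.1 and 36.0%, against 26.8 and 26.9%.

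EPZ-6438 gave no call among the targets. Against DMSO in NTG cells 0 of 33 passed in limma, where 0.321% of all genes were higher and 0.0629% lower, and 4 were higher and 4 lower at an unadjusted p under 0.05 (12.1% each, against 8.55 and 8.52% of all genes). In siMCRS1 cells 0 of 33 passed, against 0.0838 and 0.00699% of all genes, with 3 and 1 at an unadjusted p under 0.05 (9.09 and 3.03%, against 5.39 and 3.73% of all genes). In edgeR also 0 passed in either, and DESeq2 called 1, DDB2 in NTG cells. DDB2 had gone from 1379 and 1239 to 1879, 1848 and 1665 there, without overlap (0.46 ± 0.13, adjusted p = 0.12 in limma). FDXR stood at 0.42 ± 0.19 (adjusted p = 0.286), SPATA18 at 0.35 ± 0.13 (adjusted p = 0.198) and RRM2B at -0.43 ± 0.14 (adjusted p = 0.17). Of the 33, BTG2 had the highest value (0.46) and RRM2B the lowest in NTG cells. In siMCRS1 cells BTG2 had the highest (0.66) and PLK3 the lowest (-0.45), none of them called. For MDM2 and CDKN1A the 95% intervals were -0.34 to 0.33 and -0.44 to 0.40 in NTG cells, with 2 to 3 libraries a group. Changes within those bounds remain compatible with these libraries, and the bounds are not a limit of detection. The interaction of siMCRS1 with EPZ-6438 passed for 0 of 33 targets and 0% of all genes, with 0 targets at an unadjusted p under 0.05 and 0 called by edgeR or DESeq2.

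**Figure D4:**
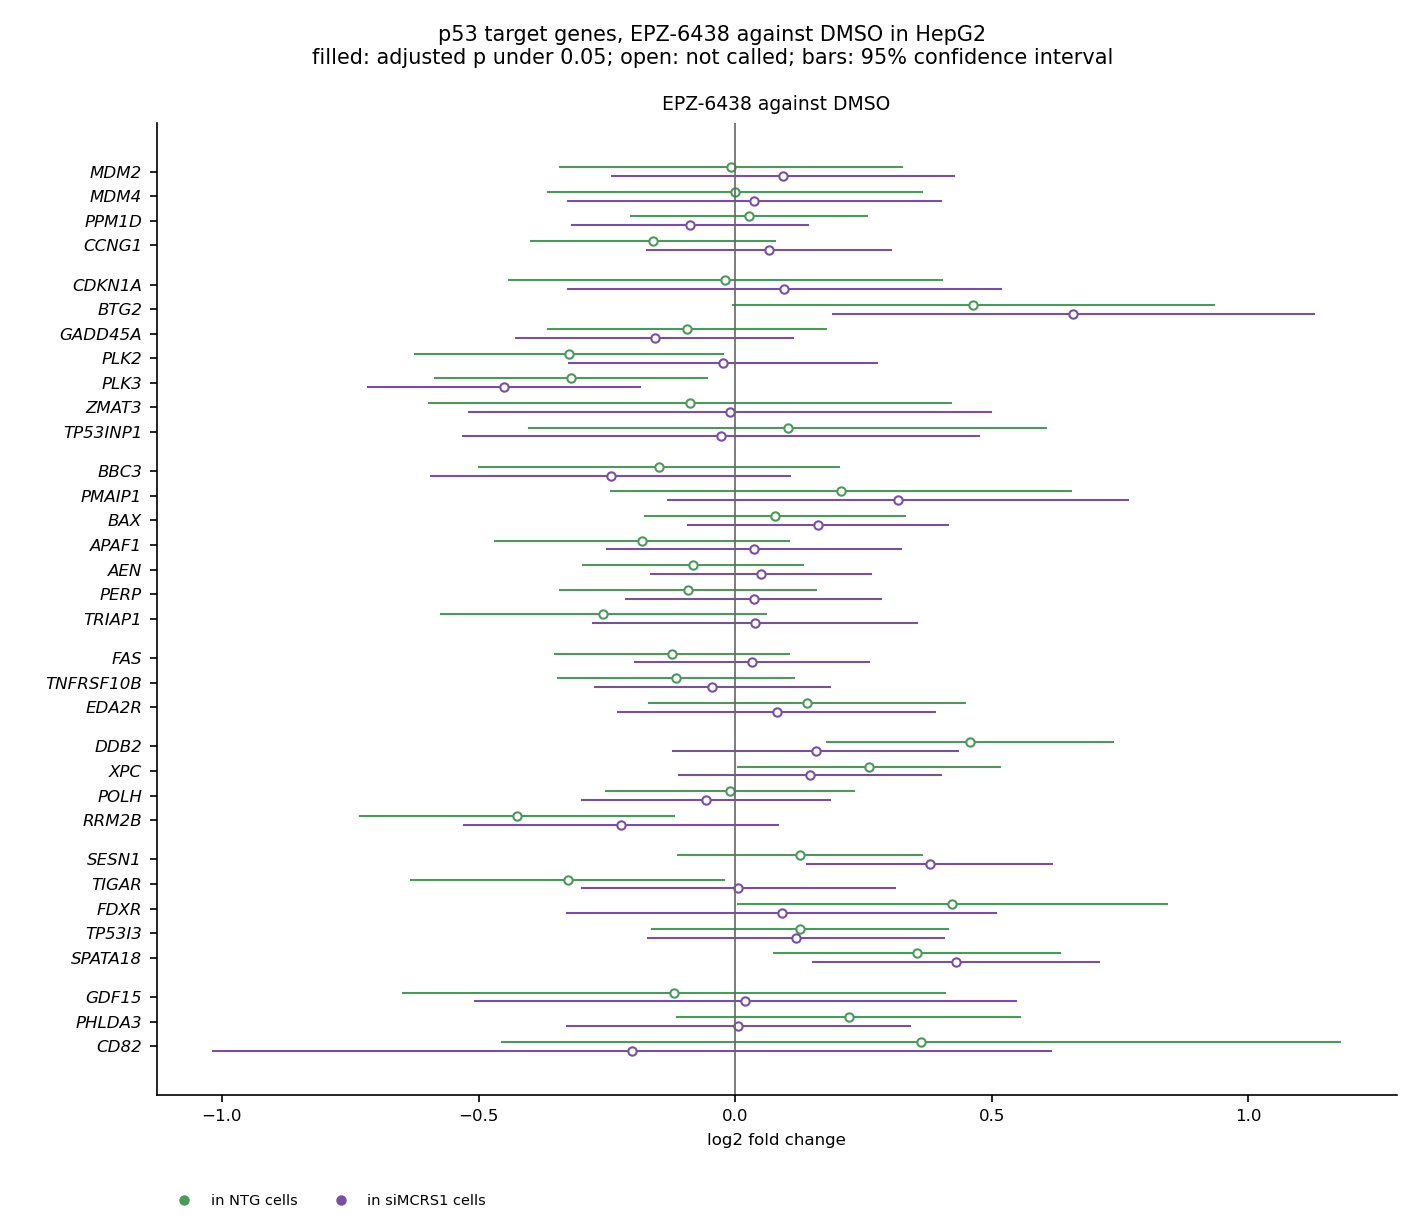
Log2 fold change (x axis) of EPZ-6438 against DMSO for the 33 tested p53 target genes in NTG cells and in siMCRS1 cells, with 95% confidence intervals. All points are open, that is none had an adjusted p under 0.05, and most intervals include 0. DDB2 in NTG cells and BTG2 in siMCRS1 cells are among those whose interval does not.

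A second list of 23 further p53 targets was read in the same way. With siINO80#1, 3 were higher and 7 lower (13.0 and 30.4%, against 20.7 and 20.8% of all genes), and with siINO80#2, 6 and 9 (26.1 and 39.1%, against 26.6 and 28.4%). With siMCRS1, 7 were higher and 4 lower in DMSO (30.4 and 17.4%, against 23.1 and 24.6%), and 8 and 5 in EPZ-6438 (34.8 and 21.7%, against 26.8 and 26.9%). STEAP3, a ferrireductase gene, rose in all (1.82, 1.98, 1.96 and 1.74 in this order), and CES2, a carboxylesterase gene, fell in all (-1.32, -1.27, -1.39 and -1.74). DRAM1, an autophagy gene, rose with siINO80#1 (1.63) and siMCRS1 (1.41 and 1.63) and was at -0.13 ± 0.12 (adjusted p = 0.358) with siINO80#2. The medians of the list were -0.22, -0.21, -0.14 and -0.10, where those of all genes were within 0.01 of 0.

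The 18 cell cycle genes that p53 lowers indirectly, through p21 and the DREAM repressor complex, had more lower than higher calls in each knockdown. With siINO80#1, 12 were lower and 1 higher (66.7% lower, against 20.8% of all genes), and with siINO80#2, 17 and 0 (94.4%, against 28.4%). With siMCRS1, 10 were lower and 1 higher in DMSO (55.6%, against 24.6%). In EPZ-6438, 7 were lower and 2 higher (38.9%, against 26.9%), and 9 were not called. E2F1, an S phase transcription factor, was at -0.88, -1.41, -1.34 and -1.41, and MCM5, a subunit of the replicative helicase, at -0.79, -2.02, -1.06 and -1.20, all called. PLK1, the mitotic polo-like kinase, was higher with siINO80#1 (0.58) and siMCRS1 (0.53 and 0.62). The medians were -0.40, -1.13, -0.43 and -0.21. Most of the list was lower with siINO80#1 and with siINO80#2, and CDKN1A was lower with the former and higher with the latter. The part of CDKN1A in the changes of this list was not tested.

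Of 20 genes that act on p53, 2 were higher and 5 lower with siINO80#1 (10 and 25%, against 20.7 and 20.8% of all genes). With siINO80#2, 3 were higher and 9 lower (15 and 45%, against 26.6 and 28.4%). With siMCRS1, 3 were higher and 6 lower in DMSO (15 and 30%, against 23.1 and 24.6%). In EPZ-6438, 5 were higher and 3 lower (25 and 15%, against 26.8 and 26.9%). Their medians were -0.06, -0.14, -0.05 and 0.03. KAT5, an acetyltransferase that modifies p53, rose in all (1.22, 1.19, 1.07 and 0.91). RCHY1, a ubiquitin ligase of p53, fell with siINO80#1 and siINO80#2 (-0.71 and -1.60), as did the checkpoint kinase gene CHEK1 (-0.48 and -1.05). KAT8, the acetyltransferase of the NSL complex, fell with siMCRS1 (-1.28 under DMSO and -1.41 under EPZ-6438).

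**Figure D5:**
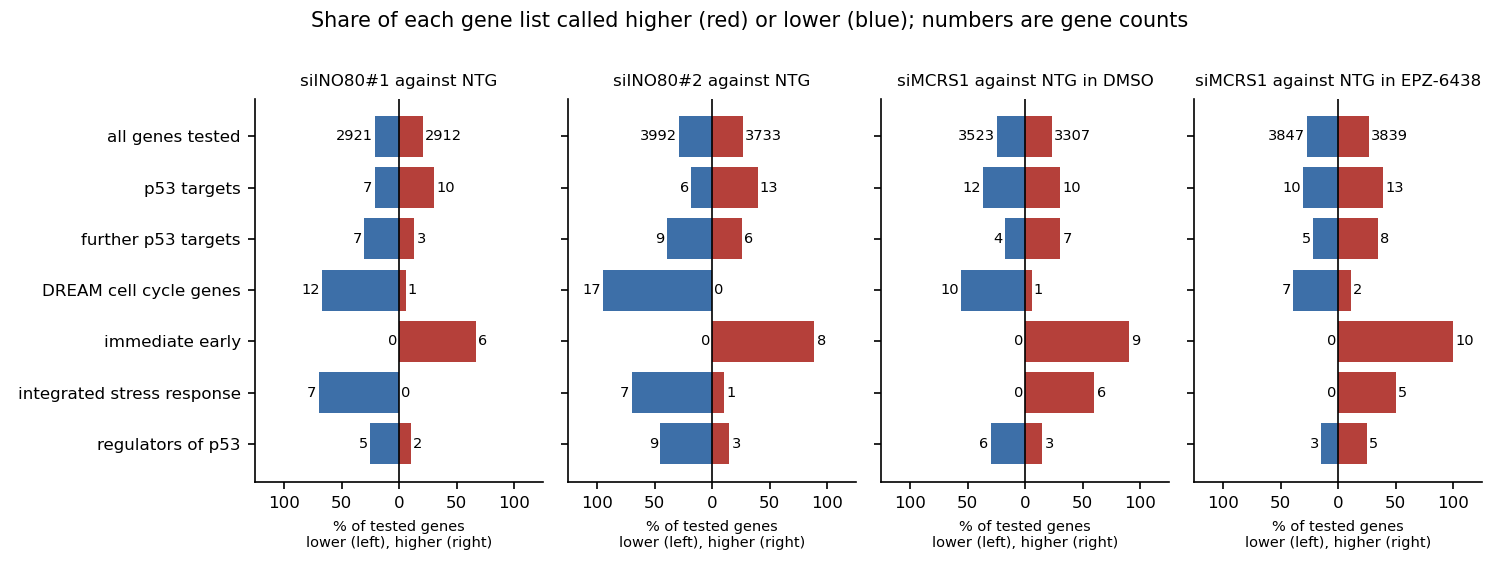
Share of the tested genes of each list (x axis, percent) called higher (to the right) or lower (to the left) in the 4 knockdown comparisons, with the gene counts beside the bars. The p53 targets have calls on both sides in every panel, 10 and 7, 13 and 6, 10 and 12, and 13 and 10, while the DREAM cell cycle genes have more calls to the left than to the right in each.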

How the data were processed

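The libraries were mRNA of HepG2 cells made with a stranded Kapa kit. Per the labels, the submitters' processing notes name kallisto, DESeq2 and GRCh38. Versions and the use of strand are not given in the sources used here. For each experiment the authors deposited a table of normalized counts, a signal that is never negative. These were whole multiples of 1 step per library (100% of values, tolerance 0.001), taken as reads, although rounded estimates would look the same. In the MCRS1 table, columns other than those of EPZ-6438 siMCRS1 carry a group but no replicate letter, so library numbers only name them.

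From these, log2(value + 1) was tested with limma 3.58.1 in R 4.3.3 (eBayes with a trend, two-sided), all groups of an experiment in 1 fit. Genes averaging 10 or more normalized counts entered (14034 and 14312), with Benjamini-Hochberg adjustment over them and a threshold of 0.05. Fold changes on this scale understate those of low genes, and the floor of 3 reads covers counting error only. The members and lists were chosen with earlier results of these data known. Values per library are given for MDM2, CDKN1A, BBC3, BAX and GDF15 and for the 5 largest called changes in each direction per siRNA (mean of 50 or more), and up to 3 genes per direction and siRNA are named from other lists. INO80 and MCRS1 are given as the check of the knockdown. Those of EDA2R, RRM2B and CD82 were added outside this rule, after their values were seen. COP1 was read as RFWD2, and 1 gene of the lists is not reported here. Alternatives were other pseudocounts, filters, scalings and fits, each library left out, and edgeR 4.0.16 and DESeq2 1.42.0 on the recovered reads. The fits were tested on simulated data.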

Additional observations from a re-analysis of the deposited data

Results flagged for a closer look

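For 6 p53 targets the siINO80#2 and siINO80#1 effects differed by limma's direct test of the difference (adjusted p under 0.05, siINO80#2 minus siINO80#1 on the log2 scale). CDKN1A differed by 0.56 ± 0.07 (adjusted p = 0.000764) and EDA2R by 0.57 ± 0.10 (adjusted p = 0.00313). PMAIP1 differed by 0.77 ± 0.17 (adjusted p = 0.00956). Smaller differences were found for APAF1 at 0.30 ± 0.09 (adjusted p = 0.0356), PLK2 at 0.27 ± 0.08 (adjusted p = 0.0298) and FDXR at -0.49 ± 0.16 (adjusted p = 0.0474). These 6 are 18.2% of the 33 tested targets, where 22.1% of all genes were called. In all 6 the 3 libraries of one siRNA did not overlap those of the other, which held for 12 of the targets (36.4%) and 38.8% of all genes. The differences of CDKN1A, EDA2R and PMAIP1 held in all 19 alternative settings. That of APAF1 was lost in 9 of them, that of PLK2 in 4 and that of FDXR in 10, with adjusted p of 0.0519 to 0.132 for APAF1 and 0.0591 to 0.119 for FDXR on leaving out single libraries. INO80 itself was lower with siINO80#2 than with siINO80#1 (log2 difference -0.40 ± 0.08, adjusted p = 0.00577), and its part in these differences was not tested. Groups held at most 3 libraries, too few for the test of single outlying libraries.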

How the results depend on the processing

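No called change reversed under any alternative, while small changes that were not called crossed 0 under some. For siINO80#1 the p53 targets higher and lower became 6 and 11 with equal totals, and for siINO80#2 the higher became 8. For siMCRS1 in DMSO, 6 were higher with equal totals. For siINO80#2 against siINO80#1 the higher were 3 with equal totals, 9 with quantile normalization, 10 with the replicate block and 9 with DESeq2, and the lower were 0 without a filter, with equal totals, with only the groups compared and with edgeR. For EPZ-6438 in NTG cells all called genes became 20 without a filter, 85 with quantile normalization and 721 with DESeq2, of which 1 was a target raised, and in siMCRS1 cells 4 without a filter, 0 with only the groups compared and 149 with DESeq2. DESeq2 called 5 genes for the interaction. Beyond fewer samples or genes tested, the cause was not tested.

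On leaving out single libraries, targets higher with siINO80#1 ranged from 6 (without NTG replicate C) to 11. For siINO80#2 against siINO80#1, all called genes ranged from 1948 (without siINO80#1 replicate A) to 3476, falling to 2040.0 without siINO80#1 replicate C, targets higher from 3 (without siINO80#2 replicate A) to 9 (without siINO80#2 replicate B), and lower from 0 to 2. For siMCRS1 in DMSO the lower ranged from 7 (without DMSO NTG library 1) to 12, and in EPZ-6438 from 6 (without EPZ-6438 siMCRS1 replicate A) to 10, with 5060.0 (without EPZ-6438 siMCRS1 replicate B) to 7573 called genes. For EPZ-6438 called genes ranged from 2 (without DMSO NTG library 2) to 70 in NTG cells and from 0 to 26 in siMCRS1 cells, and for the interaction from 0 to 3. Leaving out a library of a group of 2 left 1, assumed to vary like the other groups.

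Same-lettered libraries of the INO80 experiment correlated weakly in their deviations from the group means (mean r 0.103 over 9 pairs, from -0.0766 to 0.263). The 18 other pairs had a mean of -0.0515. That mean is no independent reference, because the deviations within a group sum to 0. These values do not decide whether the letters pair the libraries, and the main fit did not use the letters. With the replicate block the targets higher and lower were 10 and 9 for siINO80#1 and 15 and 7 for siINO80#2. For siINO80#2 against siINO80#1 the targets higher went from 5 to 10 with the block. No paired analysis was possible for the MCRS1 experiment because its columns do not carry the labels' letters in most groups.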

Other observations

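Genes of 2 stress-related lists, some of which p53 can also raise, were measured in the same fits. Immediate early genes, which growth signals and stress switch on within minutes, were mostly higher: 6 of 9 tested with siINO80#1, 8 of 9 with siINO80#2, 9 of 10 with siMCRS1 in DMSO and 10 of 10 in EPZ-6438, and 0 were lower, against 20.7, 26.6, 23.1 and 26.8% of all genes higher. EGR1 was at 1.61, 2.17, 3.08 and 3.24 on the log2 scale and EGR3 at 3.22, 3.19, 1.90 and 1.54, in this order. Of 10 tested genes of the integrated stress response, which ATF4 drives, 7 were lower with each INO80 siRNA (0 and 1 higher), whereas 6 and 5 were higher with siMCRS1 in DMSO and EPZ-6438 and 0 lower, against 20.8 and 28.4% of all genes lower and 23.1 and 26.8% higher. ASNS, asparagine synthetase, was at -1.42 and -1.27 with siINO80#1 and siINO80#2, and ATF3 at 1.99 and 2.66 with siMCRS1.

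Of 6 tested inhibitors of cyclin-dependent kinases other than CDKN1A, 2 were higher and 2 lower with each INO80 siRNA (33.3% each). All genes stood at 20.7 and 20.8% with siINO80#1 and at 26.6 and 28.4% with siINO80#2. With siMCRS1, 3 were higher and 1 lower in each treatment (50 and 16.7%). All genes stood at 23.1 and 24.6% in DMSO and at 26.8 and 26.9% in EPZ-6438. CDKN2B rose (0.98, 2.10, 0.95 and 1.00) and CDKN2C fell (-0.59, -2.04, -1.18 and -1.23) in all 4 knockdown comparisons. Of all genes tested in both experiments, 11.4% were higher and 11.4% lower in all 4. CDKN1B was lower with both INO80 siRNAs (-0.28 and -0.21) and higher with siMCRS1 (0.57 and 0.63). CDKN2A, which this list shares with the genes that act on p53 and which encodes the MDM2 inhibitor ARF, was higher with siINO80#2 (1.20 ± 0.25, adjusted p = 0.00183).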
